A study of Mus musculus with 8 samples.

Results

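The genes described here are 38 listed targets of the transcription factor p53, read in peak lists from crosslinking and immunoprecipitation (CLIP) of the RNA-binding zinc finger protein Zmat3. The members were fixed by the list, out of 49997 genes of the RefSeq gene table (GRCm38.p6). A called peak belonged to a member when its midpoint lay in the gene's span, on the strand that held most of the gene's called peaks. In all, 4199 of the 978429 called peaks of the 7 lists fell in members, 2537 of them in the 4 lists over input. The other lists hold the control peaks of members again, so these count more than once. At least 1 called peak was found in 35 members, and none in Fas, Gdf15 and Ptprv.

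The samples came from mouse embryonic fibroblasts transformed with the adenoviral protein E1A and oncogenic HrasG12V, which all lines carried. The knockout was 1 line, Zmat3-/-;E1A;HrasG12V, with no guide RNA and no Cas9 in its label. The controls were 3 lines, Cas9+;E1A;HrasG12V, each with another negative control guide, labelled EV (control 1), SPA (control 2) and ACOCA (control 3). Per the labels, the control lines were selected with puromycin for 3 days and grown for 10 days more, a step not given for the knockout. Knockout and Cas9 or guide therefore cannot be told apart in these libraries. Each line gave 1 anti-Zmat3 immunoprecipitate (IP) and 1 input, and the inputs entered only as comparators. The labels do not say whether the control lines came from separate embryos, so the spread between them may be technical.

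The protein p53 is activated by DNA damage and by oncogenes, and it switches on genes that halt the cell cycle, trigger cell death, repair DNA and adjust metabolism. E1A is known to raise p53 levels, and oncogenic Ras also engages the pathway. Zmat3 is itself a p53 target and binds RNA, and RNAs of other p53 targets are therefore both outputs of the pathway and possible partners of the protein.

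Each list gives, per peak, the authors' log2 fold and −log10 p-value of an IP over its comparator. The comparator was input in 4 lists and the knockout IP in 3 lists, and a fold over the knockout IP runs control over knockout. Enriched means here a log2 fold and a −log10 p-value that both reached 3. The lists hold 167648 called peaks over input in the knockout, against 129323, 153768 and 122284 in controls 1 to 3. They hold no read counts, so depth is unknown. The level of an RNA, the depth of a library and binding cannot be told apart in the number of called peaks. In these bulk lines, fewer cells that make an RNA and less of it per cell cannot be told apart either. Zmat3, the gene deleted in the knockout, had 38 called peaks in the knockout and 42, 48 and 39 in controls 1 to 3. Of the control peaks, 4, 16 and 1 were enriched over the knockout IP in controls 1 to 3, with highest log2 folds of 4.30, 5.00 and 4.04, while over input 0 were enriched in the knockout and 0, 1 and 0 in controls 1 to 3. The labels do not say which part of the gene is deleted. Of 15 fibroblast markers, 8 had called peaks in the knockout and 8, 9 and 8 in controls 1 to 3, while Col1a1, Col1a2, S100a4, Lox, Postn and Thy1 had none in any IP. Of 5 epithelial markers, 3 were called in the knockout (Epcam, Cdh1 and Krt18), against 1, 2 and 2 in controls 1 to 3, with Epcam in every IP. Of 5 haematopoietic markers, Cd68 alone was called, in all 4 IPs, and of 4 endothelial markers none was. Of 4 neural markers, Map2 alone was called, with 0 peaks in the knockout and 9, 8 and 4 in controls 1 to 3. The part of other cell types in the results was not tested.

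Of all sites with an enriched peak in a member, a sequence could be read here for 1, the site in Bbc3, because it lies across an annotated transcript start. Bbc3 encodes Puma, a BH3-only protein that triggers mitochondrial cell death. The sequence is shown as the one that could be read, and the site was called in all 4 IPs. It is the plus strand of chr7:16310141-16310281 (RefSeq, GRCm38.p6), and capitals mark the bases from the annotated start at 16310261 on.
Bbc3: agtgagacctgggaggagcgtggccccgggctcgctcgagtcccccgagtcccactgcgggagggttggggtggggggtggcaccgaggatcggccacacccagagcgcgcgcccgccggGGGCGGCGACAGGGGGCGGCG
The 141 nt run from position −120 to position 20 relative to that start. They hold 13 T (9.22%) and 78% G or C, where the median over 32851 RefSeq promoter windows was 23% T and 52.7% G or C. Against input, this site reached a log2 fold of 2.11 in the knockout, and of 3.25, 1.75 and 0.60 in controls 1 to 3 (mean 1.87 ± 1.33, SD, n = 3). The knockout lay inside the range of the controls, and the peak of control 1 was the one enriched peak. Against the knockout IP the same site had log2 folds of 0.88, 0.30 and −0.59 in controls 1 to 3, none of them enriched.

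The first comparison asked how many of each IP's called peaks lay in p53 target genes. Members held 875 called peaks over input in the knockout, against 483, 762 and 417 in controls 1 to 3 (mean 554 ± 183, SD, n = 3). The knockout count was above that of every control, and its exact permutation p of 0.25 (two-sided, 1 against 3 libraries) is the smallest this design can give. As a share of all called peaks, members made up 0.522% in the knockout and 0.373%, 0.496% and 0.341% in controls 1 to 3 (exact permutation p = 0.5). The long non-coding RNA Pvt1, a neighbour of Myc that p53 activates, held 48.2% of the called member peaks summed over the 7 lists. Without it the share was 0.284% in the knockout, against 0.185%, 0.277% and 0.151% in controls 1 to 3. Control 2 lay closest to the knockout in both versions of the share.

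Among cell cycle genes, 132 peaks were called in the knockout and 56, 92 and 59 in controls 1 to 3, over 9 members. Cdkn1a (chromosome 17, 29090979–29100722), which encodes the cyclin-dependent kinase inhibitor p21, had 35 called peaks in the knockout and 18, 22 and 22 in controls 1 to 3. Fbxw7, the substrate receptor of a ubiquitin ligase that degrades cyclin E and Myc, had 26 called peaks in the knockout and 11, 11 and 16 in controls 1 to 3. In both genes every control lay below the knockout. Of all genes with at least 20 called peaks over the 4 IPs, 37.3% had this order, which bears on each gene described below. Ccng1, which encodes cyclin G1, had 14 called peaks in the knockout and 4, 14 and 1 in controls 1 to 3, so the controls reached the knockout. The kinase gene Plk2 had 9 in the knockout and 1, 4 and 2 in controls 1 to 3, again with every control below the knockout, but it did not reach that minimum. The other kinase gene, Plk3, had 15 in the knockout and 8, 9 and 6 in controls 1 to 3. Btg2 had 9 in the knockout and 6, 7 and 5 in controls 1 to 3. Both followed the same order. Gtse1 (18 in the knockout and 7, 19 and 7 in controls 1 to 3) and Rb1 (6 in the knockout and 1, 6 and 0) overlapped between knockout and controls.

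Among cell death genes, 144 peaks were called in the knockout and 75, 124 and 45 in controls 1 to 3, over 11 members. Aen, which encodes an exonuclease induced in apoptosis, had 26 called peaks in the knockout and 17, 10 and 7 in controls 1 to 3. Eda2r, a receptor of the tumour necrosis factor family, had 26 in the knockout and 3, 20 and 1 in controls 1 to 3. Both genes were highest in the knockout, and Eda2r had the wider spread among controls. Bax, the pore-forming protein of the mitochondrial outer membrane, had 10 called peaks in the knockout and 8, 7 and 8 in controls 1 to 3. Bbc3 had 12 in the knockout and 17, 10 and 9 in controls 1 to 3, with control 1 above the knockout. Tnfrsf10b had 20 in the knockout and 14, 22 and 7 in controls 1 to 3, and Ei24 had 17 in the knockout and 3, 17 and 5. Trp53inp1, which promotes autophagy and p53 activity, had 11 in the knockout and 0, 16 and 0 in controls 1 to 3. In Tnfrsf10b, Ei24 and Trp53inp1, control 2 reached or passed the knockout. Phlda3, Perp and Pmaip1, the last encoding the BH3-only protein Noxa, had 9, 7 and 6 called peaks in the knockout and between 0 and 8 in the controls.

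The 5 DNA repair genes had 63 called peaks in the knockout and 15, 71 and 5 in controls 1 to 3. Polk, a translesion DNA polymerase, had 36 called peaks in the knockout and 6, 47 and 3 in controls 1 to 3. Ercc5, the endonuclease XPG of nucleotide excision repair, had 27 in the knockout and 1, 12 and 1 in controls 1 to 3. Ercc5 was thus higher in the knockout than in every control, whereas control 2 exceeded the knockout in Polk. Ddb2, a damage sensor of the same repair pathway, ran the other way, with 0 called peaks in the knockout and 5, 11 and 1 in controls 1 to 3. Xpc, the damage recognition protein of that pathway, had 0 in the knockout and 3, 0 and 0 in controls 1 to 3, and the ribonucleotide reductase subunit gene Rrm2b had 0 in the knockout and 0, 1 and 0. These counts are too low to order the libraries.

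Stress and metabolism genes had 84 called peaks in the knockout and 54, 92 and 43 in controls 1 to 3. Sesn2, a sestrin that restrains mTORC1 signalling, had 21 called peaks in the knockout and 21, 30 and 16 in controls 1 to 3. Cpt1c, a carnitine palmitoyltransferase family member, had 25 in the knockout and 24, 25 and 16 in controls 1 to 3. Neither gene had a knockout count outside the range of the controls. Ak1, an adenylate kinase, had 14 in the knockout and 1, 10 and 0 in controls 1 to 3, and the lipase family gene Abhd4 had 10 in the knockout and 1, 9 and 2. In both, every control lay below the knockout. Ddit4, Pltp, Sesn1 and Dcxr had 3 or 4 called peaks in the knockout and between 0 and 8 in the controls. Among the remaining members, Pvt1 (chromosome 15, 62037986–62260215) had 399 called peaks in the knockout and 244, 336 and 232 in controls 1 to 3. The receptor tyrosine kinase gene Epha2 had 49 in the knockout and 37, 42 and 30 in controls 1 to 3. Every control lay below the knockout in both. Rap2b, a small GTPase, had 3 in the knockout and 1 in each control, and Tap1 had 1 in the knockout and 1, 4 and 2 in controls 1 to 3.

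**Figure D1:**
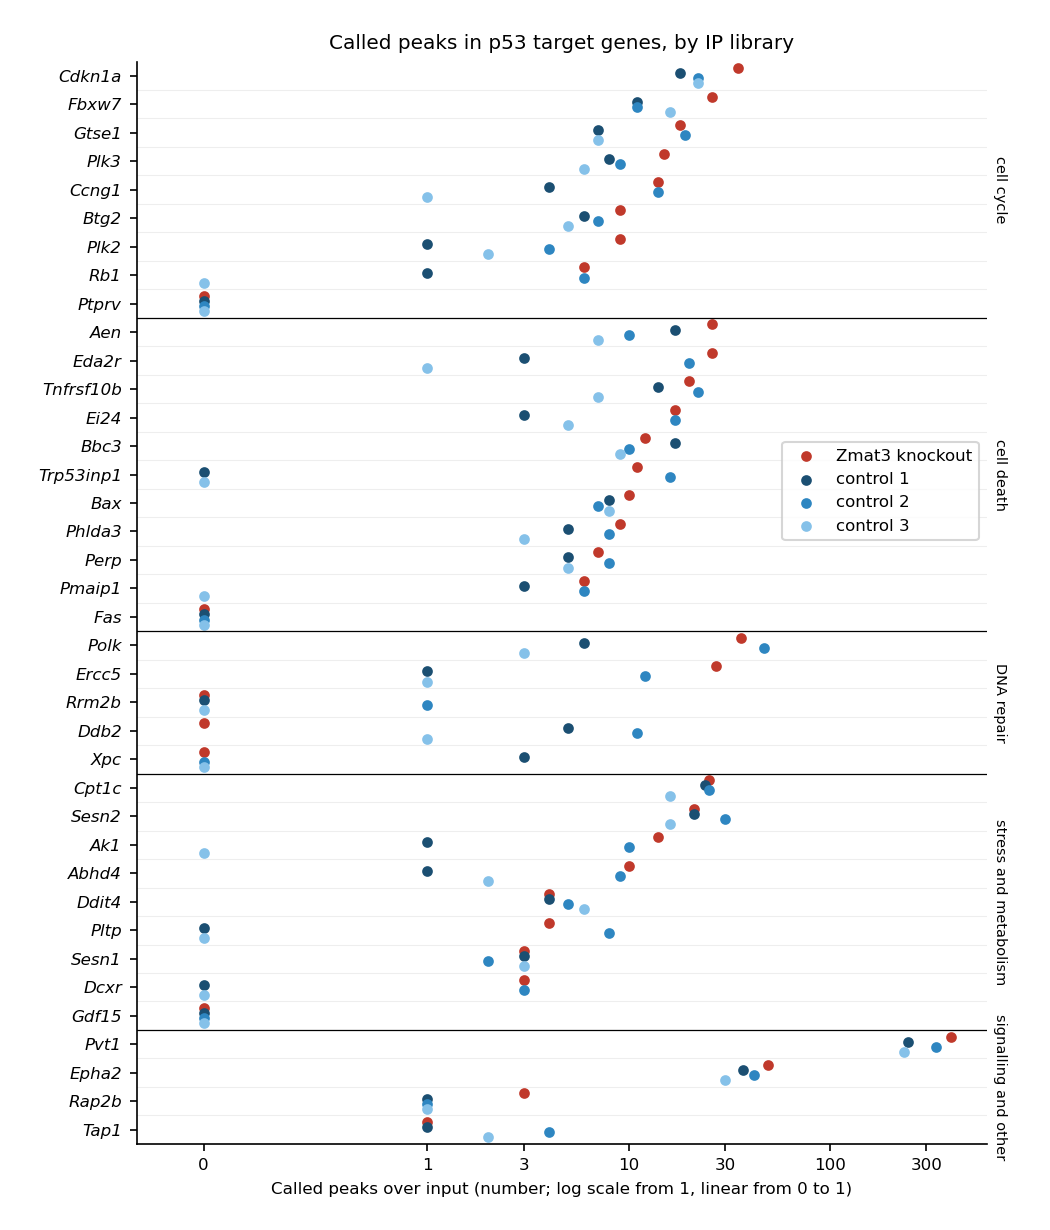
Called peaks over input in each of the 38 members (rows, grouped by role), on a horizontal axis that is linear from 0 to 1 and logarithmic above. Each point is 1 IP library, red for the knockout and blue for controls 1 to 3, and Pvt1 stands far to the right with 399 peaks in the knockout and 244, 336 and 232 in controls 1 to 3.

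Counted per gene, more peaks were called in the knockout than in every control for 13 of the 23 members with at least 20 called peaks over the 4 IPs, or 56.5%, where 37.3% of all genes did so. These were Abhd4, Aen, Ak1, Bax, Btg2, Cdkn1a, Eda2r, Epha2, Ercc5, Fbxw7, Phlda3, Plk3 and Pvt1. Fewer peaks in the knockout than in every control were found for 0 of the 23 members, where 16.3% of all genes did so. Ddb2 had that order, but its called peaks were under the minimum of 20. That minimum, applied to all genes alike, counts the knockout too, so members could enter through the library where they are high. Ercc5, for example, had 27 called peaks in the knockout and 1, 12 and 1 in controls 1 to 3. Both counts of the 23 members are therefore given as a description. Among members with at least 20 called peaks in the knockout and the control together, control 1 had less than 0.5 times the knockout count in 6 of 15, where 16.0% of all genes did. In control 2 this held for 3 of 18 (Ercc5, Fbxw7 and Aen), where 8.57% of all genes did. In control 3 it held for 8 of 15, where 19.0% of all genes did. In 4 of the 6, 3 of the 3 and 5 of the 8 the knockout alone reached 20 peaks and the control did not, so these members entered the count through the library where they are high, and the counts are given as a description. Of these 15, 18 and 15 members past the minimum, none had more than 2 times the knockout count. Of all genes past it, 3.34%, 5.22% and 2.94% did in controls 1 to 3. The 3 comparisons share the 1 knockout library and are not independent.

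**Figure D2:**
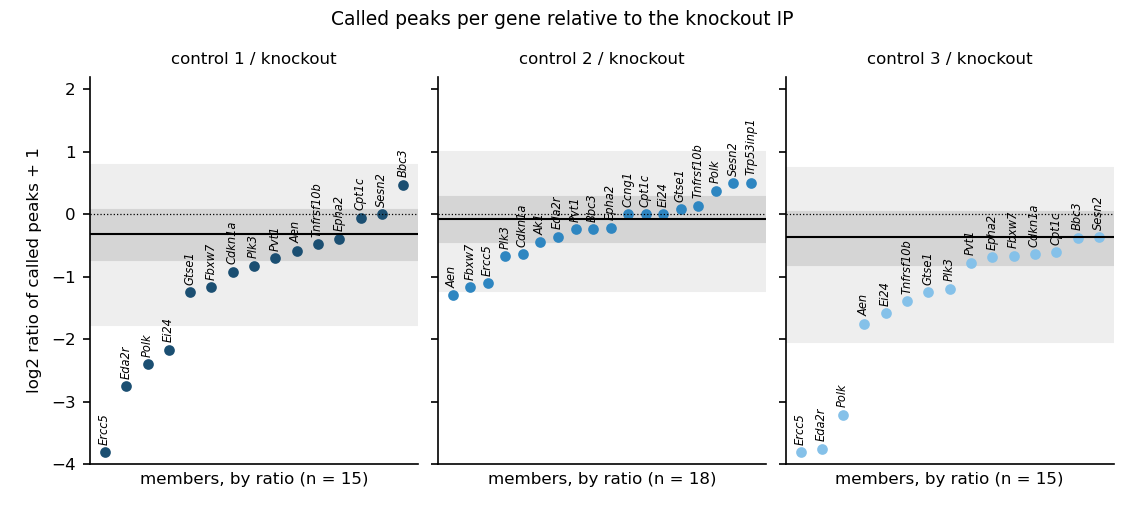
Log2 ratio of called peaks per gene (each count + 1), control over knockout, for the members with at least 20 called peaks in both libraries together, ordered by ratio. The dark band holds the middle 50% of all genes, the light band the middle 90%, and the line their median; the members' medians of −0.83, −0.23 and −1.19 in controls 1 to 3 stand beside −0.32, −0.07 and −0.36 for all genes.

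The second comparison asked which p53 target RNAs held enriched peaks. Over input, 0 of 875 member peaks were enriched in the knockout, which allows a share of up to 0.343%, and 0.316% of all called peaks of that list were enriched. In controls 1 to 3, 4 of 483, 10 of 762 and 0 of 417 were enriched, where 1.02%, 1.05% and 0.494% of all called peaks were. The members' shares were 0.828% and 1.31% in controls 1 and 2, and the 0 in control 3 allows up to 0.719%. These limits cover counting error only. The controls averaged 0.713% ± 0.663 (SD, n = 3), and the difference of the knockout from them had an exact permutation p of 0.75. Over the knockout IP, 1, 9 and 1 member peaks were enriched in controls 1 to 3, or 0.207%, 1.18% and 0.24%, where 0.621%, 1.09% and 0.648% of all called peaks were.

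By gene, an enriched peak over input was found in 0 of 32 called members in the knockout, where 2.34% of all genes had one. Control 1 had 3 of 31 (Bbc3, Btg2 and Pvt1), control 2 had 6 of 34 (Sesn2, Btg2, Gtse1, Ddb2, Pvt1 and Rb1) and control 3 had 0 of 27, where 6.29%, 10.1% and 3.31% of all genes had one. Against the knockout IP the counts were 1 of 31 in control 1 (Btg2), 7 of 34 in control 2 and 1 of 27 in control 3 (Ddb2), where 4.90%, 10.7% and 5.24% of all genes had one. The 7 of control 2 were the 6 named over input and Ddit4. In all, 8 of the 35 members with a called peak had an enriched peak in at least 1 of the 7 lists, where 16.1% of all called genes had one. Cdkn1a was not among the 8. The highest log2 fold over input in Cdkn1a was 2.02 in the knockout and 2.55, 2.70 and 2.18 in controls 1 to 3.

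A region was called reproducible from the enriched peaks of at least 2 of the 3 controls. In each such control, an enriched peak of its input list had to share at least 1 nt with an enriched peak of its knockout IP list. The knockout IP lists hold the control peaks of members again, so both can be the same called peak, scored against each comparator. Such a region was found in 1 of the 27 members called in every control, where 2.08% of 9512 such genes had one. The count was 0 without control 1, without control 2, at a log2 fold threshold of 4, or where all 3 controls were required. That member was Btg2, which encodes an antiproliferative protein that binds the deadenylation machinery.

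The Btg2 site lay at chr1:134077839-134077948 on the minus strand, 1262 nt from the 5′ end of the gene. No knockout peak was called there. This site and those below were formed from control peaks and kept for an enriched one. A low or missing knockout value at them is therefore given as a description. Over input its log2 folds were 4.71, 3.24 and 1.92 in controls 1 to 3 (mean 3.29 ± 1.39, SD, n = 3). Over the knockout IP they were 3.41, 4.52 and 2.32 (mean 3.42 ± 1.10, SD, n = 3). All 3 controls were above 0 and control 3 was under the threshold in both lists. The other Btg2 peaks had median log2 folds over the knockout IP of −0.49, −0.11 and −1.21, so the site stood 3.89, 4.63 and 3.53 above them in controls 1 to 3. The site was selected by such folds, so this gap is given as a description. A neighbouring site at 134077771–134077818 was called in control 2 only, at a log2 fold of 3.19 against input and 2.88 against the knockout IP.

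In Ddb2 the site lay at chr2:91234355-91234488 on the minus strand, 2711 nt from the 5′ end, and no knockout peak was called in the gene on that strand. Its log2 folds over input were 1.90, 5.44 and 3.68 in controls 1 to 3 (mean 3.68 ± 1.77, SD, n = 3), with −log10 p-values of 1.37, 11.7 and 2.94. Over the knockout IP they were 3.77, 5.72 and 4.67 (mean 4.72 ± 0.98, SD, n = 3). The folds of all 3 controls passed 3 over the knockout IP, and controls 2 and 3 also passed the p-value there. The other Ddb2 peaks had median log2 folds over the knockout IP of 2.18 and 1.88 in controls 1 and 2, also above the list medians of 1.18 and 0.88. The site stood 1.58 and 3.84 above those other peaks, and control 3 had no other peak on that strand. The Ddb2 site was selected by such folds too, so this gap is also a description. Over input control 1 stood at the level of its other Ddb2 peaks, whose median was 1.90.

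In Sesn2 the site at chr4:132498135-132498235 on the minus strand had log2 folds over input of 2.31, 3.97 and 1.60 in controls 1 to 3 (mean 2.63 ± 1.22, SD, n = 3) and no knockout peak. With the knockout IP as comparator they were 3.60, 4.25 and 2.58 (mean 3.48 ± 0.84, SD, n = 3). Control 2 alone passed both thresholds in both lists, since the 3.60 of control 1 missed the p-value. Rb1, the retinoblastoma tumour suppressor, had a site at chr14:73283053-73283139 on the minus strand that was called in control 2 only, at 4.19 over input and 4.47 over the knockout IP. Ddit4, a stress-induced inhibitor of mTORC1, had a site at chr10:59951097-59951139 on the minus strand called in control 2 only, at 2.60 over input and 4.47 over the knockout IP.

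Pvt1 held 4 sites with an enriched peak, and the highest lay at chr15:62242023-62242136 on the plus strand, at 91.8% of the span. Against input it had a log2 fold of 0.65 in the knockout, and of 4.16, 5.93 and 2.77 in controls 1 to 3 (mean 4.29 ± 1.59, SD, n = 3). The knockout lay below all controls, at a site formed from control peaks and picked as the highest. Against the knockout IP the values were 2.70, 5.63 and 2.02 in controls 1 to 3 (mean 3.45 ± 1.92, SD, n = 3), so control 2 alone passed the threshold there. A site at 62258299–62258389 had 1.31, 3.29 and 1.18 against input and 2.18, 3.57 and 1.17 against the knockout IP in controls 1 to 3, with no knockout peak. One at 62208178–62208276 had 1.54 and 3.13 against input and 1.09 and 2.41 against the knockout IP in controls 1 and 2, also with no knockout peak. The last, at 62099480–62099556, had 0.76 against input in the knockout and 3.22 and 0.82 in controls 1 and 2, but 0.70 and −0.70 against the knockout IP. Control 1 was the enriched library at that last site, and control 2 at the other two. Gtse1, which encodes a microtubule-associated protein that counteracts p53, had 2 neighbouring sites near its 3′ end. The first, at chr15:85875837-85875912 on the plus strand, had log2 folds of 2.31 and 2.75 against input and of 1.01 and 3.03 against the knockout IP in controls 1 and 2. The second, at chr15:85875922-85876144, had 2.31, 3.25 and 2.40 against input and 0.01, 2.39 and 2.17 against the knockout IP in controls 1 to 3. Neither site had a knockout peak, and control 2 was the one library with an enriched peak at either.

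**Figure D3:**
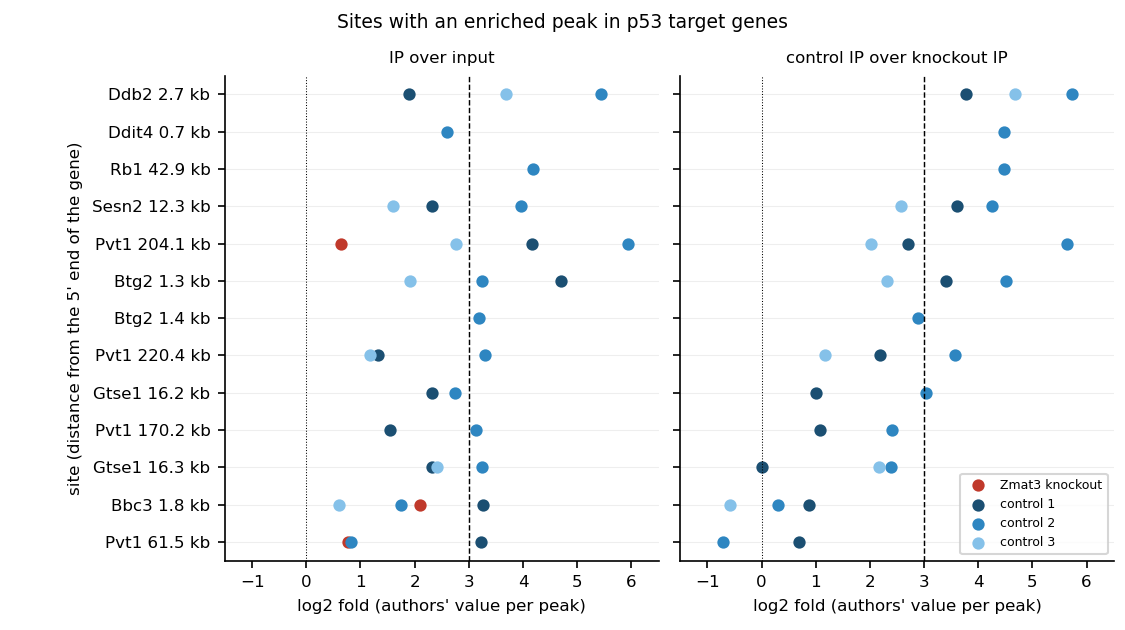
Log2 fold, as the authors give it, at each of the 13 sites with an enriched peak in a member, over input (left) and control IP over knockout IP (right). Each point is 1 library, the dashed line marks the threshold of 3, and a missing point means that no peak was called. The knockout has a point at 3 sites, in Bbc3 and Pvt1, and sites were formed from control peaks only.

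**Figure D4:**
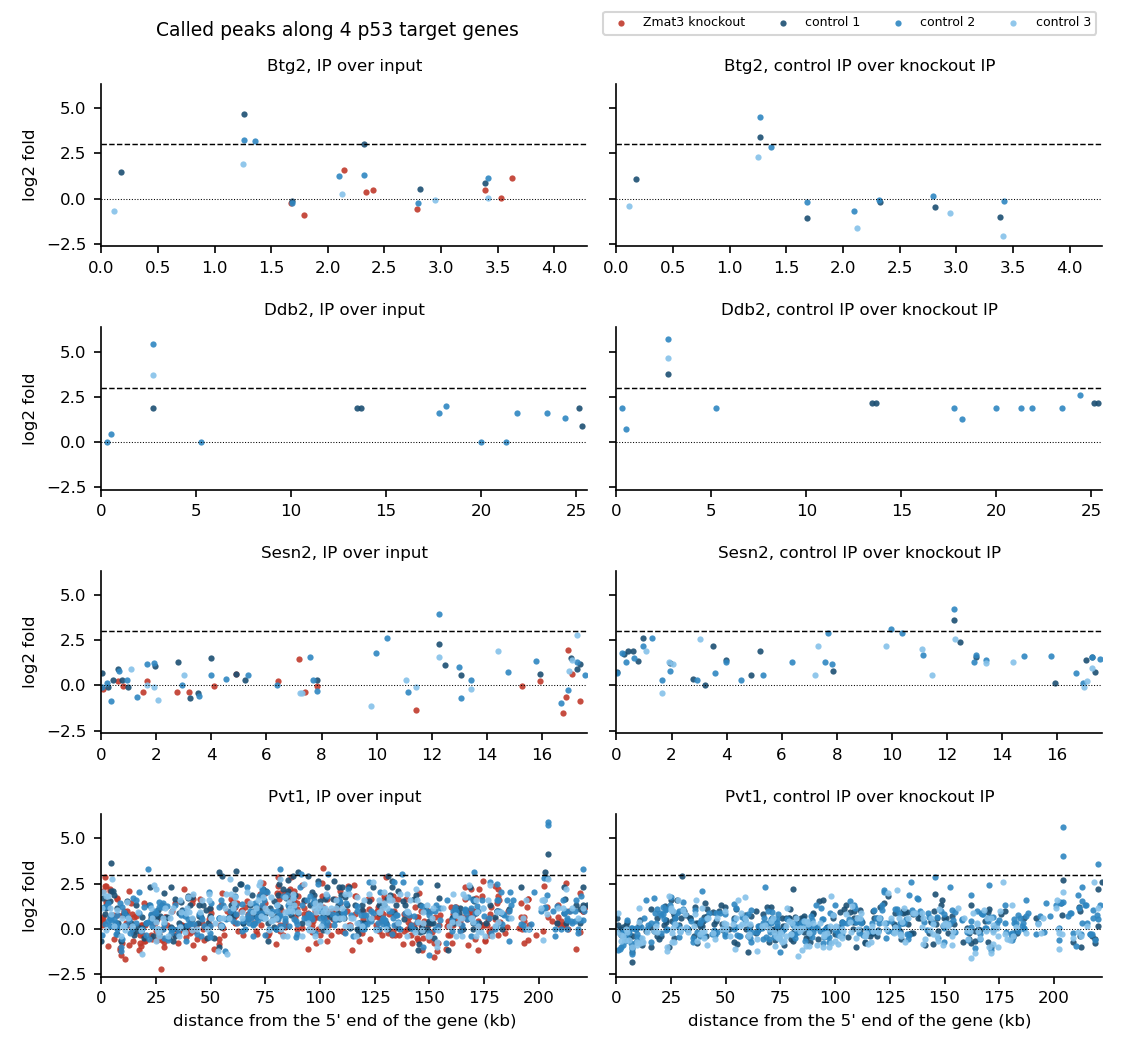
Log2 fold of every called peak along Btg2, Ddb2, Sesn2 and Pvt1 by distance from the 5′ end of the gene in kb, over input (left) and control IP over knockout IP (right). Each point is 1 called peak of 1 library and the dashed line marks the threshold of 3. Over the knockout IP, the highest peaks of all 3 controls coincide at 1262 nt in Btg2. At 2711 nt in Ddb2, the highest peaks of controls 1 and 2 coincide with the 1 called peak of control 3.

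Of the other members, the 8 with the highest median log2 fold over the knockout IP at a site called in at least 2 controls had no enriched peak. Tap1, a subunit of the peptide transporter for antigen presentation, had log2 folds of 2.92 and 3.10 over the knockout IP in controls 1 and 2 (mean 3.01 ± 0.13, SD, n = 2), but 2.64 and 0.50 over input. Cpt1c was the one of the 8 with a site called in all 4 IPs, at −0.94 over input in the knockout and 0.73, 1.92 and 1.82 in controls 1 to 3. Its values against the knockout IP were 1.01, 1.62 and 1.81 in controls 1 to 3. The knockout was below every control at that site, and all 3 controls missed the threshold. The site was picked by its folds over the knockout IP, so this order is given as a description. The 6 others were called in controls 1 and 2 at their site and not in the knockout or control 3. Their log2 folds against the knockout IP in controls 1 and 2 were 2.18 and 1.30 for Fbxw7, 1.34 and 1.76 for Epha2, and 1.01 and 2.03 for the death receptor gene Tnfrsf10b. The kinase gene Plk3 had 0.60 and 2.30, the endoplasmic reticulum protein gene Ei24 had 1.18 and 1.62, and Polk had 1.01 and 1.30. All of these stayed under the threshold in both controls.

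Along the gene span, the 17 enriched control peaks had a median position of 32.2% (range 10.6% to 99.2%), and the other 1645 control peaks 48%. In successive bins of 20% from the 5′ end, the enriched peaks numbered 3, 6, 0, 2 and 6. The other peaks numbered 379, 304, 349, 309 and 304. The enriched peaks thus lay on both sides of the middle bin, and their median does not mark a shift to the 5′ end. Peaks of different controls at the same site count separately.

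The third comparison set the general level of member peaks against each list. Over the knockout IP, the median log2 fold of all member peaks minus that of all called peaks was −0.96, −0.40 and −1 in controls 1 to 3 (mean −0.79 ± 0.34, SD, n = 3). In every control the median member peak thus had a lower ratio of control to knockout than the median called peak. Without Pvt1 the differences were −1, −0.17 and −0.83 in controls 1 to 3. Over input the same difference was 0.00 in the knockout, against 0.00, −0.08 and 0.00 in controls 1 to 3. Without Pvt1 it was −0.20 in the knockout, against −0.05, −0.24 and −0.26 in controls 1 to 3.

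By gene, among members with at least 5 called peaks, a median at least 1 below that of the list was found over the knockout IP for 9 of 17 in control 1, where 6.82% of all genes had one. It was found for 2 of 28 in control 2, where 1.97% of all genes had one, and for 8 of 16 in control 3, where 5.38% had one. The members' share was above that of all genes in each control, and the 3 lists share the 1 knockout library. Over input the counts were 3 of 26 in the knockout, where 7.36% of all genes had one, and 1 of 17, 2 of 28 and 2 of 16 in controls 1 to 3, where 3.15%, 1.32% and 4.95% had one. A median at least 1 above that of the list was found against the knockout IP for 1, 2 and 0 members in controls 1 to 3, where 7.97%, 2.39% and 9.97% of all genes had one. Against input it was found for 0 members in the knockout, where 1.15% of all genes had one, and for 0, 1 and 0 in controls 1 to 3, where 2.52%, 14.6% and 1.66% had one. A median below that of the list at all was found against the knockout IP for 14 of 17, 17 of 28 and 14 of 16 members in controls 1 to 3, where 47.8%, 34.7% and 40.9% of all genes had one. Against input this held for 14 of 26 in the knockout, where 42.9% of all genes had one, and for 9 of 17, 19 of 28 and 10 of 16 in controls 1 to 3, where 43.5%, 37.2% and 46.6% had one.

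Cdkn1a stood at −1.76, −0.68 and −2.39 over the knockout IP in controls 1 to 3, relative to the list median. Bax stood at −1.80, −1.26 and −2.04, and Aen at −2.26, −1.62 and −2.12. These genes of arrest and death were below the list median in every control. Btg2 stood at −1.51, −0.96 and −1.79 in controls 1 to 3, although it held the one reproducible region. Perp, a desmosomal protein of p53-dependent apoptosis, stood at −1.39, −0.52 and −1.55, and Phlda3, an inhibitor of Akt signalling, at −1.32, −0.68 and −1.18. Sesn2 was above the list median in every control, at 0.22, 0.48 and 0.29, and Bbc3 stood near the median at 0.22, −0.15 and −0.15. Other members also went the other way in some controls. Ddb2 stood at 1 and 1 in controls 1 and 2, with 1 called peak in control 3. Fbxw7 stood at −0.58, 0.42 and 0.17 in controls 1 to 3. Over input, Cdkn1a stood at 0.42 in the knockout and 0.47, 0.08 and −0.08 in controls 1 to 3. Bax stood at −1.16 in the knockout and −0.91, −1.32 and −1 in the controls. Aen stood at 0.29 in the knockout and 0.29, −0.38 and 1. In these genes the knockout lay inside the range of the controls over input, and in Bbc3 above it (0.58 against 0.42, 0.18 and 0). The level of an RNA and binding cannot be told apart in a fold over the knockout IP.

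**Figure D5:**
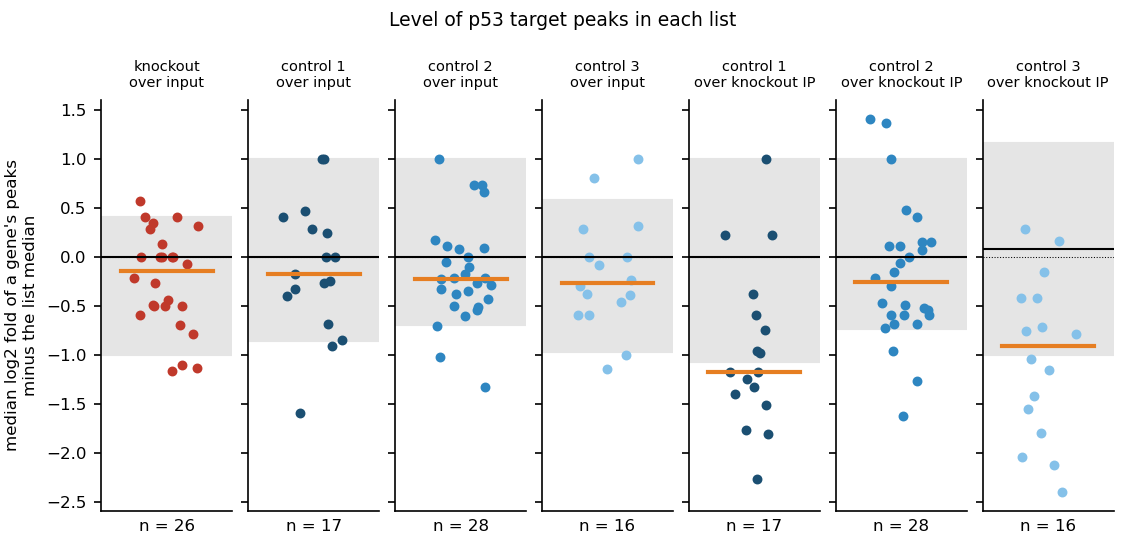
Median log2 fold of a gene's peaks minus the median of its list, for members with at least 5 called peaks, in each of the 7 lists. Each point is 1 gene, the orange line the members' median, the black line the median of all genes and the grey band their middle 90%; the members' medians over the knockout IP are −1.17, −0.26 and −0.91 in controls 1 to 3.

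Other genes of the p53 pathway, its regulators and cofactors, gave a reproducible region in 3 of 27 genes called in every control, namely Mdm4, Atm and Crebbp, where 2.08% of such genes had one. The list held 30 genes, Zmat3 itself among them, of which 28 matched the gene table. Mdm4 encodes an inhibitor of p53, Atm the kinase that reports DNA breaks, and Crebbp an acetyltransferase that coactivates p53. Mdm2, the ubiquitin ligase that degrades p53 and is itself a p53 target, had 52 called peaks in the knockout and 24, 43 and 18 in controls 1 to 3. Over input, 1 was enriched in the knockout and 0, 2 and 1 in controls 1 to 3, and over the knockout IP 0, 1 and 0. Its site with enriched control peaks had log2 folds of 2.64, 4.67 and 4.57 over input and −0.30, 4.59 and 0.73 over the knockout IP in controls 1 to 3.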

How the data were processed

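Per the labels' protocols, UV-crosslinked cells were immunoprecipitated with anti-Zmat3 antibodies and RNA from 35 to 110 kDa was sequenced. The submitters' processing notes name mm10. Not given in the sources used here are the aligner, peak caller, choice of input and handling of peaks without comparator reads. The deposited lists give the authors' log2 fold and −log10 p-value per peak, 4 over input and 3 over the knockout IP. Both units were read from the values, as no header names them, and the largest −log10 p-value is 400. Peaks were called per sample, and inputs have no list of their own.

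Peaks were assigned to RefSeq gene spans (GRCm38.p6) with pandas and numpy. Overlapping control peaks formed a site, where each library takes its highest log2 fold, so a site called in the knockout alone could not appear. Libraries were compared by exact permutation of 1 knockout against 3 controls (two-sided). No model across genes was fitted, because the lists hold no counts. Named with values in every library were the 8 members with an enriched peak and, after them, the 8 with the highest median log2 fold over the knockout IP at a site called in at least 2 controls. Zmat3, Mdm2, Mdm4 and pathway genes with a region were also named. Members named for called counts or for shifts were chosen after their values were seen. Alternatives were other thresholds, overlaps and comparators, both strands, leaving out each control, and leaving out Pvt1. The members and lists were chosen with earlier results of these data known. Region calling was tested on simulated data. Exons and a genome sequence were not used here.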

Additional observations from a re-analysis of the deposited data

How the results depend on the processing

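The lists hold no counts, so depth limits every statement on called peaks, and 1 knockout library limits every comparison with it. No paired analysis was possible because the knockout and the controls share at most 1 replicate number. No result reversed. The mean number of member peaks enriched over the knockout IP per control was 3.67. It became 7.33 with the log2 fold threshold set to 2, and leaving out 1 control gave 1 to 5. The 1 member with a reproducible region (Btg2) became 2 at a log2 fold of at least 2 (with Pvt1), 2 at a −log10 p-value of at least 2 (with Ddb2), 2 with the knockout IP alone (with Ddb2) and 2 with input alone (with Pvt1). It became 0 at a log2 fold of at least 4 or with support by all 3 controls, and 5 with support by 1 control. Leaving out 1 control gave 0 to 1, with 0 without control 1 and 0 without control 2. The 3 other pathway genes became 1 with the log2 fold threshold raised to 4, 1 at a −log10 p-value of at least 5 and 1 with all 3 controls. They became 8 with 1 control and 5 with the knockout IP alone, and both counts include Zmat3, the gene deleted in the knockout. Leaving out 1 control gave 1 to 2 of these pathway genes. Without Pvt1, an alternative chosen after seeing the data, the median over input relative to the list was −0.2 in the knockout and −0.185 in the controls, against 0 and −0.03 with it. The causes were not tested.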

Other observations

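Identical log2 folds recurred within a list. The 875 member peaks of the knockout list held 157 distinct log2 folds, and the 417 of control 3 over input held 70. The Rb1 and Ddit4 sites of control 2 had the same log2 fold over the knockout IP, 4.47.

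Some member peaks lay close to the threshold. A Gtse1 peak of control 2 was just inside it over the knockout IP, at a log2 fold of 3.03. A Btg2 peak of control 1 was just outside it over input, at a log2 fold of 3.02 with a −log10 p-value of 2.95. The highest knockout peak of any member was in Pvt1, at a log2 fold of 3.35 with a −log10 p-value of 2.65.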
